A study of Mus musculus with 11 samples.

Results

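The genes described here belong to the epidermal differentiation complex of the mouse, and some of them make the cornified envelope. They were chosen by name: protein-coding genes whose symbols begin with Lce or Sprr, the S100a genes other than S100a8 and S100a9, and Lor, Ivl, Flg, Flg2, Rptn, Hrnr, Crnn, Tchh, Tchhl1 and Crct1. This gave 58 genes of the 52550 in the deposited table, and all 58 lie within 3.05 Mb of chromosome 3 (GRCm38, chr3:90511034-93564643). The group comprised 15 Lce1 and Lce6 genes, 6 Lce3 genes, 15 Sprr genes, 12 S100a genes, 7 genes of the S100-fused type (Flg, Flg2, Hrnr, Rptn, Crnn, Tchh and Tchhl1), and Lor, Ivl and Crct1.

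The study asked whether keratinocytes (KCs) and dendritic epidermal T cells (DETCs) change their gene expression when Langerhans cells (LCs) are missing. LC-/- mice carry huLangerin-DTA, in which the human langerin promoter drives diphtheria toxin subunit A, so LCs are missing from birth, and WT mice were their littermates. All mice were 8 weeks old, and both populations were sorted from trypsin-treated flank epidermis as langerin-, c-kit- and MHC-II- cells, KCs as CD45- and DETCs as CD45+. There were 3 WT and 3 LC-/- KC libraries, and 3 WT and 2 LC-/- DETC libraries. Libraries are numbered 1 to 3 within each genotype in the order of the numbers in their labels. A KC and a DETC library of one genotype and number carry the same label number, but what that number stands for is not stated. The LC-/- DETC libraries are numbered 2 and 3. Values are normalized counts, that is, reads per gene divided by a size factor of the library, and 1 read was worth 0.825 to 1.11 of these units. They are not divided by gene length unless that is said.

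As the outermost living keratinocytes die, they replace their membrane with the cornified envelope, a shell of crosslinked protein that gives the skin its barrier. Involucrin (Ivl) is laid down early in this process, loricrin (Lor) is its main component, small proline-rich proteins (Sprr) bridge the others, and late cornified envelope proteins (Lce) are added last. Filaggrin (Flg) and its relatives bundle keratin filaments and are later broken down into moisturizing amino acids. The S100a genes at the ends of the complex encode small calcium-binding proteins, several of which many cell types express.

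The 250 bases before the RefSeq start of a gene were read for 50 of the 58 genes (GRCm38.p6). Lce1f, S100a10, Crct1, Sprr2j-ps, S100a2 and S100a14 had no entry, and the entries of S100a3 and Sprr2a2 began far from the gene start used here. TGACTCA, the letters bound by AP-1 factors, was searched on both strands, and TATAAA, the core of a TATA box, on the strand of the gene. TGACTCA was present before 8 of 13 Sprr genes, both Lor and Ivl, and S100a11, and before none of 14 Lce1 and Lce6 genes, 6 Lce3 genes or 7 S100-fused genes. The share over the 27025 genes of the table was 4.43%. TATAAA was present before 10 of 13 Sprr genes, 4 of 7 S100-fused genes and both Lor and Ivl, against 8.12% of the table. It was present before only 2 of 14 Lce1 and Lce6 genes, among them Lce1m, 1 of 8 S100a genes and none of 6 Lce3 genes. The following 5 sequences are shown because these genes stand for the classes whose levels differ below. Sprr1a and Ivl were lower in DETC than in KC libraries, and Lor, Lce1m and Hrnr did not pass the test with libraries unpaired. Each runs 5′ to 3′ on the strand of its gene and ends at the base before the start, and capitals mark TGACTCA or its reverse complement and TATAAA. Of the 5, Sprr1a, Ivl and Lor held both motifs, and Lce1m and Hrnr held TATAAA only. The other tested Sprr genes, Sprr1b, Sprr4, Sprr2a1 and Sprr2a3, had no TGACTCA. Any link of the motifs to the levels was not tested.
Sprr1a (chr3:92485882-92486131, minus strand): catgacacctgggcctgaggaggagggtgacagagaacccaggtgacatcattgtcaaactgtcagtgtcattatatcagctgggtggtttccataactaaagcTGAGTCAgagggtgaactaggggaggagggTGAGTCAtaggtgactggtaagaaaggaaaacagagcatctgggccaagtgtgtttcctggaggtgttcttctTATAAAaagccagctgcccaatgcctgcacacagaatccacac
Ivl (chr3:92573736-92573985, minus strand): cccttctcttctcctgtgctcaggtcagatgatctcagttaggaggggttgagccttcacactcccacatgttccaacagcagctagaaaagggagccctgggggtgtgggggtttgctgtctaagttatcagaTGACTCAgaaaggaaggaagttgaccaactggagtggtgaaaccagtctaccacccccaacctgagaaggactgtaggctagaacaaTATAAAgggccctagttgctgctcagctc
Lor (chr3:92083143-92083392, minus strand): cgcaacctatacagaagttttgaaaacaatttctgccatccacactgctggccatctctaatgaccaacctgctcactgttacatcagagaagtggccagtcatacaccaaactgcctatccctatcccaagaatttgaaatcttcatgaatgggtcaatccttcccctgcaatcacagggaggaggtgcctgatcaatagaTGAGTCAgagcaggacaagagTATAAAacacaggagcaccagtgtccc
Lce1m (chr3:93019062-93019311, minus strand): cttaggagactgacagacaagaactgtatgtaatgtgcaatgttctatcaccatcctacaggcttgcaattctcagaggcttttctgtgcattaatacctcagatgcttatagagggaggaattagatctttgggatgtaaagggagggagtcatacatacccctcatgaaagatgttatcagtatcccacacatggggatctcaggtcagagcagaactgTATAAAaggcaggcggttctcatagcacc
Hrnr (chr3:93319499-93319748, plus strand): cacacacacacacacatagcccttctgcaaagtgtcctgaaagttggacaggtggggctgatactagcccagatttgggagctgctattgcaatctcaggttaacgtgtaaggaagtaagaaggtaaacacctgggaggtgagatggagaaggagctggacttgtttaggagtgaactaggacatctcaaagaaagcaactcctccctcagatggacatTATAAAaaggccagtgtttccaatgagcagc

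Of the 58 genes, 29 had a CPM above 1 in at least 2 of the 11 libraries and were tested, among 14419 tested genes in all. They were 10 of 12 S100a genes, 5 of 15 Sprr genes, 7 of 15 Lce1 and Lce6 genes, 4 of 7 S100-fused genes, and Lor, Ivl and Crct1. Sprr3, Lce3a, Lce3b, Lce3d, Lce3e and Lce3f had no read in any library, and Lce3c had 1 read. In all, 21 genes had fewer than 10 reads over the 11 libraries. A count of 0 allows up to 3 reads, and this covers counting error only. The 58 genes together took 0.214% to 0.281% of the reads of a KC library and 0.0991% to 0.144% of a DETC library. A library held 13491075 to 19750440 reads on genes.

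Counted per length, on normalized counts per kilobase of exon, WT KCs held most of S100a11 at 12062, of Sprr1a at 8814, of S100a10 at 4353 and of S100a14 at 2891. Sprr1b stood at 475, Lor at 374, Sprr4 at 321 and Ivl at 275 per kilobase. The Lce1m level was 162 per kilobase and that of the other tested Lce genes 15.2 to 27.7. Flg2 stood at 50.4, Hrnr at 12.6 and Flg at 4.48 per kilobase over very long exons. Reads of S100a11 may be shared with the pseudogenes Gm12854 and Gm7665, with which 37.8% of its 75-base stretches are identical. Sprr2a1 and Sprr2a3 share 94.3% and 47.5% of theirs with neighbours. S100a4 and S100a3 overlap the gene Gm42674. Counts of these genes are uncertain for that reason.

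The labels of the populations were checked on marker genes. The 18 DETC and T cell markers summed to 281310 to 307852 in DETC libraries and to 356 to 673 in KC libraries, where up to 9 of the 18 were at 0. Cd3e was between 24602 and 27726 in DETC libraries and between 0 and 10.5 in KC libraries. Cd207, which encodes langerin, had 0 reads in all 3 LC-/- KC libraries and 6.15, 26.9 and 15.6 normalized counts in WT KCs. It had 21.8, 16.5 and 46.7 in WT DETCs and 0 and 4.42 in LC-/- DETCs. The DETC libraries were not free of keratinocyte transcripts. The 24 keratinocyte markers had a median of 15.3%, 15.8% and 18.9% of their WT KC mean in WT DETC libraries 1, 2 and 3, and of 24.97% and 16.0% of their LC-/- KC mean in LC-/- DETC libraries 2 and 3. None of the 24 was at 0 in any DETC library. In these bulk samples, fewer cells of a type and less RNA per cell cannot be told apart.

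In KCs, 1 of the 29 tested genes, S100a10, rose in LC-/- mice and none fell. Lor, Flg, Ivl, the tested Lce and Sprr genes and the other S100a genes did not pass the test. At an unadjusted p under 0.05 in limma 6 of the 29 (20.7%) were higher and 0 lower, against 14.7% and 11.7% of all tested genes, and neither edgeR nor DESeq2 called one lower. S100a10 encodes the p11 partner of annexin A2 (ENSMUSG00000041959.14, chr3:93555080-93564643). Its normalized counts were 5420, 5073 and 5334 in WT KC libraries 1, 2 and 3 and 6434, 6632 and 6635 in the LC-/- KC libraries. Every LC-/- library was above every WT library. The fold change was 1.25 (log2 difference 0.32, SE 0.04, limma adjusted p = 0.0238). Over all tested genes, 5.37% were called higher and 1.85% lower in this comparison, so the 1 of 29 (3.45%) was no more than the background. The call was lost when any 1 library other than LC-/- library 2 was left out, with 1 of 29 called without library 2 and 0 of 29 without any other. The log2 difference of S100a10 stayed between 0.29 and 0.34 in these 6 fits, with adjusted p in limma of 0.0459 to 0.0825, and over all genes the higher calls numbered 5 to 552 in place of 775. With quantile normalization the S100a10 difference was 0.12 and its adjusted p 0.177.

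The S100a genes were the only family with a positive log2 difference in all tested members. The 10 tested S100a genes had a median log2 difference of 0.19, with a range of 0.04 to 0.32, against a median of -0.01 over all tested genes. In 6 of them every LC-/- library was above every WT library, and none had the opposite order. Over all tested genes 16.6% had the first order and 14.9% the second, and over the 29 genes 20.7% had the first. S100a6, which encodes calcyclin, had normalized counts of 2216, 2534 and 2668 in WT KCs and of 2937, 2987 and 2917 in LC-/- KCs. Its log2 difference was 0.26 (SE 0.07) and its adjusted p in limma 0.104. S100a14, an epithelial S100 protein, had 4968, 4839 and 5171 in WT KCs and 5497, 6250 and 5731 in LC-/- KCs, a log2 difference of 0.22 (SE 0.06, limma adjusted p = 0.0912). S100a11, an early envelope component, had 6420, 6003 and 6068 in WT KCs and 6645, 7132 and 6764 in LC-/- KCs. Its log2 difference was 0.15 (SE 0.05, limma adjusted p = 0.120). The remaining genes without overlap were S100a13 and S100a16, with log2 differences of 0.31 and 0.21 and adjusted p in limma of 0.130 and 0.112. DESeq2 on the recovered reads called S100a10, S100a6, S100a14 and Sprr1a higher, 4 of the 19 genes to which it gave an adjusted p. It called 11.5% of all genes with an adjusted p higher.

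Among the small proline-rich genes, Sprr1a was the most abundant, with 8826, 6200 and 6287 normalized counts in WT KCs and 7826, 10892 and 10352 in LC-/- KCs. LC-/- library 1 lay below WT library 1, so the groups overlapped. The log2 difference was 0.45 (SE 0.20, 95% CI -0.04 to 0.95, limma adjusted p = 0.221). Sprr1b had 586, 310 and 286 in WT KCs and 375, 473 and 421 in LC-/- KCs, and Sprr4 had 94.3, 57.5 and 70.9 in WT KCs and 78.2, 90.6 and 45.2 in LC-/- KCs. Both overlapped between genotypes, with log2 differences of 0.17 and -0.09. Ivl, an early scaffold of the envelope (ENSMUSG00000049128.7, chr3:92570902-92573735), had 689, 503 and 393 in WT KCs and 402, 704 and 856 in LC-/- KCs. Its log2 difference was 0.28 (SE 0.35, 95% CI -0.61 to 1.16), and no direction could be told.

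Lor (ENSMUSG00000043165.7, chr3:92080271-92083142) had 692, 946 and 357 normalized counts in WT KCs, and 526, 1416 and 352 in LC-/- KCs. The highest library was 4.02 times the lowest, and the WT range lay within that of the LC-/- libraries. The log2 difference was 0.06 (SE 0.63, 95% CI -1.54 to 1.65), an interval that runs from 0.34 to 3.14 times the WT level. It was 0.49 without LC-/- library 3, -0.34 without WT library 3 and -0.52 without LC-/- library 2. Flg (ENSMUSG00000102439.4, chr3:93273523-93293686) had 99.4, 115 and 38.9 in WT KCs and 51.8, 105 and 46.2 in LC-/- KCs, with a log2 difference of -0.27 (SE 0.53, 95% CI -1.62 to 1.07). Flg2, a filaggrin relative with the most counts of the S100-fused genes, had 1070, 1554 and 520 in WT KCs and 752, 1467 and 561 in LC-/- KCs, a log2 difference of -0.16 (SE 0.54). Lce1m had 141, 249 and 70.9 in WT KCs and 108, 292 and 68.3 in LC-/- KCs, with a log2 difference of -0.07 (SE 0.70). In all 4 genes library 2 of each genotype was the highest. The other named Lce genes were low. Lce1c had 21.5, 33.4 and 5.19 in WT KCs and 15.4, 8.14 and 7.36 in LC-/- KCs. Lce1a2 had 16.4, 26.0 and 3.46 in WT KCs and 9.92, 10.2 and 3.15 in LC-/- KCs. All 7 tested Lce1 and Lce6 genes had a log2 difference below 0 (median -0.68, range -2.12 to -0.01), with limma adjusted p of 0.219 or more.

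**Figure D1:**
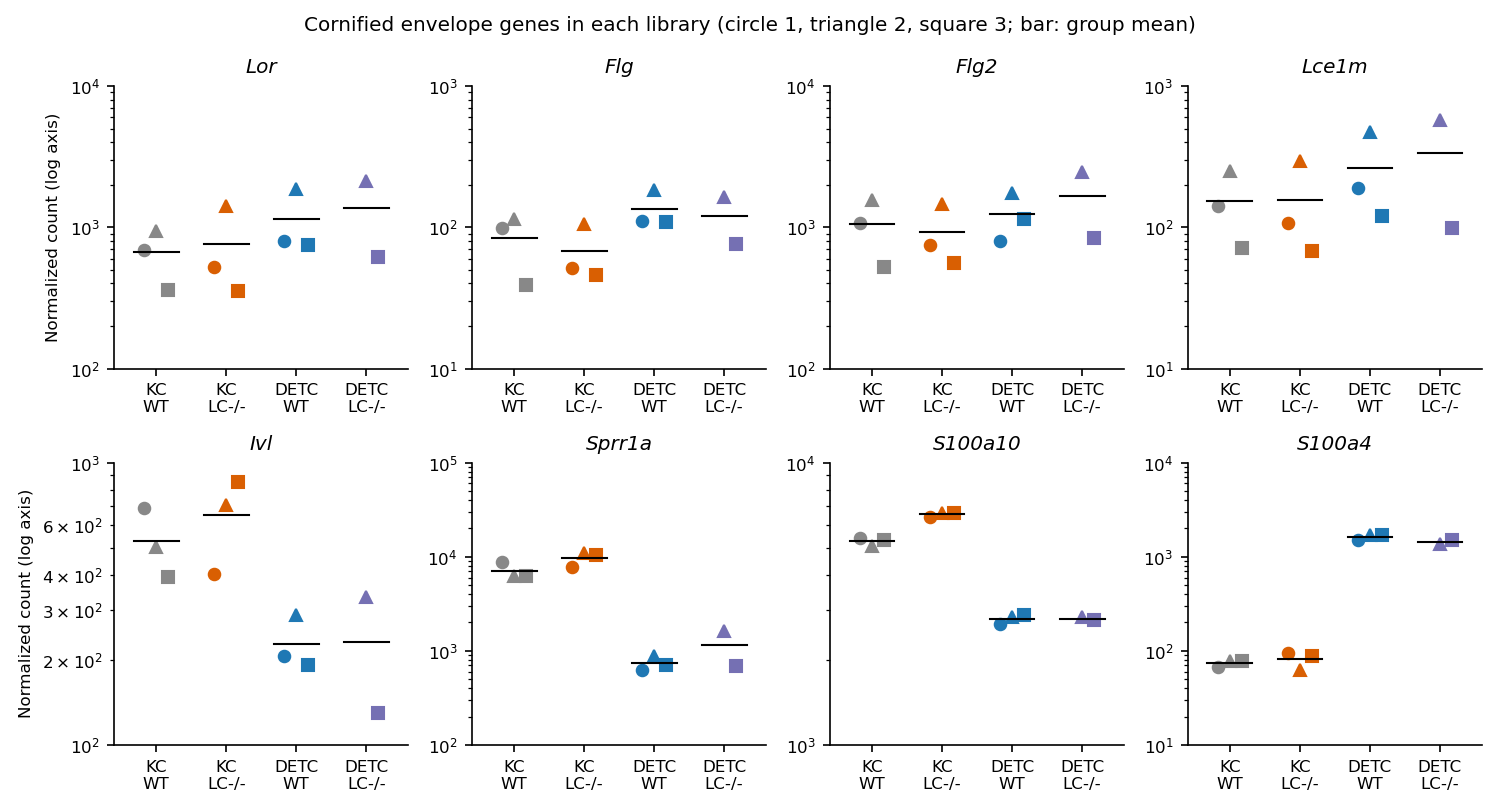
Normalized counts (log axis) of 8 genes in each of the 11 libraries, by population and genotype, with circles, triangles and squares for libraries 1, 2 and 3 and a bar at the group mean. For Lor, Flg, Flg2 and Lce1m library 2 is the highest of every group, the S100a10 values of LC-/- KCs lie above those of WT KCs, and Sprr1a and S100a4 separate KC from DETC libraries.

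The spread between libraries of one group differed between the families. The within-group SD in KCs, on the log2 scale, had a median of 0.16 over all tested genes and of 0.13 over genes with a mean of at least 100. The median was 0.11 for the S100a genes, 0.44 for the Sprr genes, 0.61 for the S100-fused genes, 0.77 for Lor, Ivl and Crct1, and 0.99 for the Lce1 and Lce6 genes. Tchh, a structural protein of the hair follicle inner root sheath, was an exception among the S100-fused genes with an SD of 0.10. It had 204, 214 and 179 normalized counts in WT KCs and 187, 180 and 193 in LC-/- KCs.

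The order of the libraries was often alike in both populations. In 9 of the 29 genes, Lor, Flg, Flg2, Hrnr, Crct1, Lce1a2, Lce1c, Lce1m and Lce6a, library 2 was the highest WT library in KCs and in DETCs, and LC-/- library 2 was above LC-/- library 3 in both. This order was seen in 3.43% of all tested genes. It was also seen in 7 of 25 tested partners of the envelope (Cdsn, Klk5, Alox12b, Csta1, Dsc1, Spink5 and Tgm1), in 3 of 10 suprabasal markers (Dsc1, Krt77 and Tgm1) and 2 of 27 regulators (Keap1 and Ovol1), and in none of 24 keratinocyte markers, 10 basal markers or 18 T cell markers. Cdsn, which encodes corneodesmosin of the cell junctions of the horny layer, had 742, 1028 and 681 in WT KCs, 781, 1340 and 585 in LC-/- KCs, 552, 968 and 683 in WT DETCs and 1134 and 506 in LC-/- DETCs. No Sprr gene and no S100a gene showed it. The order was noticed after the values were seen, and is given as a description.

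In DETCs, none of the 29 tested genes was called between LC-/- and WT mice by limma, and none had an unadjusted p under 0.05, against 13.1% of all tested genes higher and 6.19% lower at that level. DESeq2 and edgeR called none either. Over all tested genes 3.13% were called higher and 0.430% lower. Lor had 797, 1872 and 744 normalized counts in WT DETC libraries and 2116 and 618 in LC-/- DETC libraries 2 and 3. The 2 LC-/- libraries lay on either side of the WT range. The log2 difference was 0.14 (SE 0.54, 95% CI -1.10 to 1.39). Flg had 110, 184 and 109 in WT and 163 and 76.3 in LC-/- libraries, and Ivl had 206, 288 and 192 in WT and 333 and 129 in LC-/- libraries. Their log2 differences were -0.22 (SE 0.35) and -0.11 (SE 0.37). All 3 genes were below 0 without LC-/- library 2, at -0.74, -0.76 and -0.79, and above 0 without LC-/- library 3, at 1.03, 0.32 and 0.56. S100a10 had 2682, 2837 and 2880 in WT and 2833 and 2767 in LC-/- DETCs, a log2 difference of 0.00078 with a 95% CI of -0.19 to 0.19.

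The 2 LC-/- DETC libraries stood apart in these genes. In 25 of 29 genes library 2 was above library 3, against 53.0% of all tested genes. Without library 3 the log2 difference was above 0 in 23 of 29 genes (median 0.70), at 0.67 for S100a14 and 1.14 for Sprr1a. Without library 2 it was below 0 in 24 of 29 (median -0.39). The medians of all tested genes were 0.03 and 0.01 in these fits. Each of these fits assumes that the single LC-/- library left varies like the WT libraries. Library 2 was also the LC-/- DETC library with more keratinocyte transcripts, at 24.97% against 16.0% of the LC-/- KC mean. The part of these transcripts in the difference was not tested. Relative to the 24 keratinocyte markers none of the 29 genes was called, and the median of the 29 log2 differences was -0.38, that of all tested genes being -0.28. In S100a3 every LC-/- DETC library was above every WT library, and in S100a11 and S100a13 every one was below, counts to be read beside 21.3% and 16.5% of all tested genes.

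**Figure D2:**
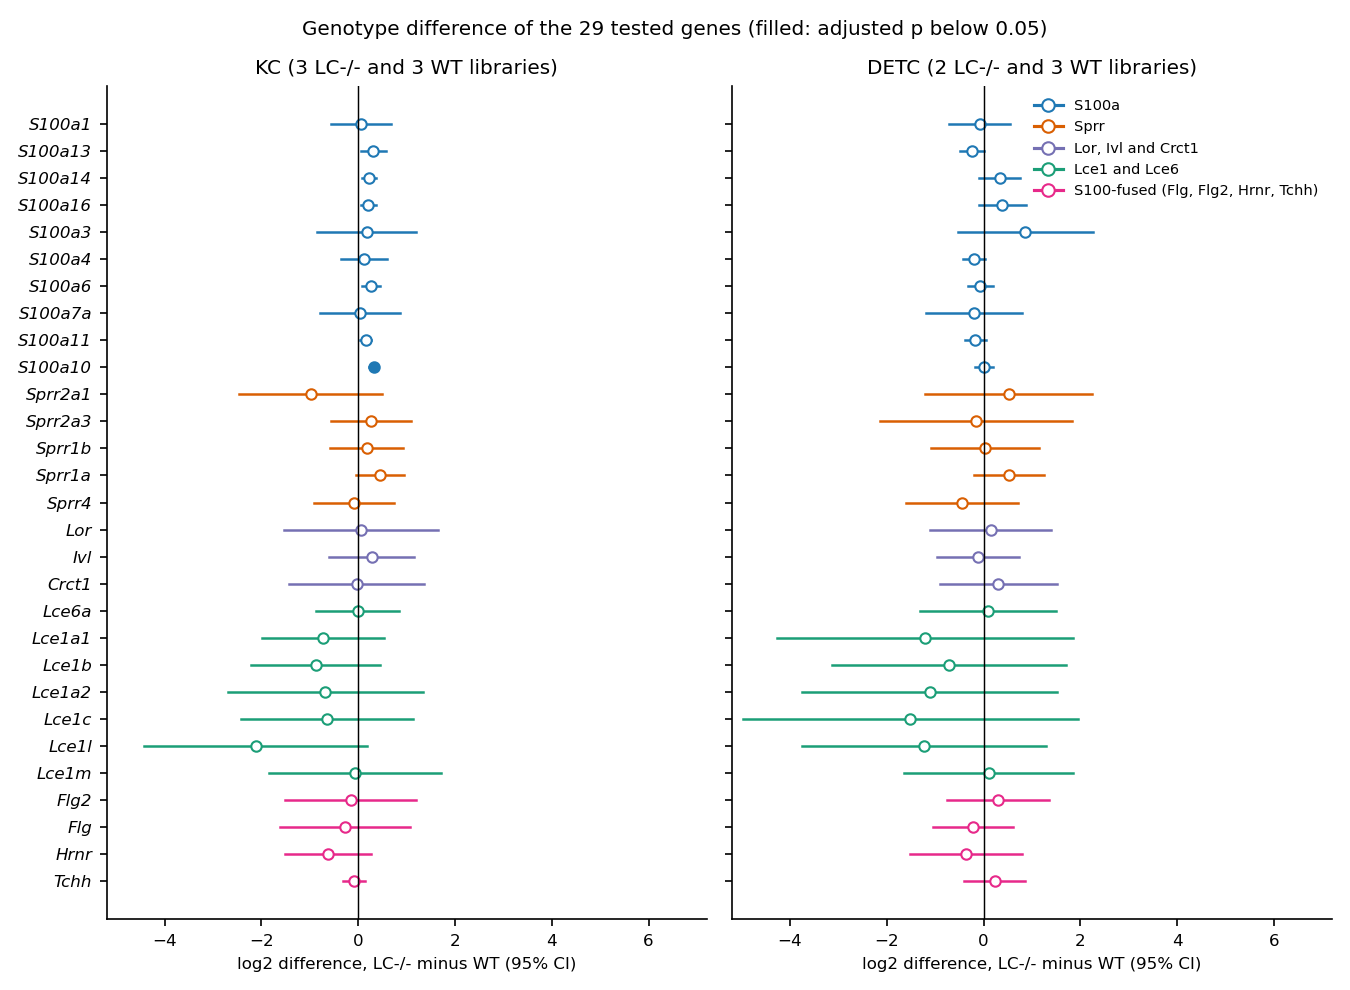
Log2 difference between LC-/- and WT libraries with its 95% confidence interval for the 29 tested genes in KCs (left) and DETCs (right), coloured by family, with filled points for an adjusted p below 0.05. S100a10 in KCs is the filled point, the S100a intervals are narrow, and the Lce1 intervals reach from -4.98 to 1.95 in DETCs.

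The genotype difference was then compared between the populations with an interaction term. None of the 29 genes passed, and 0.617% of all tested genes were called with a higher and 0.180% with a lower difference in DETCs. At an unadjusted p under 0.05, 4 genes had a lower difference in DETCs and none a higher one, against 4.04% and 7.30% of all tested genes. S100a10 had a log2 interaction of -0.32 (SE 0.10, limma adjusted p = 0.204) and S100a13, a partner in stress-induced release of growth factors, of -0.54 (SE 0.16, limma adjusted p = 0.166). S100a13 had 183, 147 and 170 normalized counts in WT KCs and 204, 213 and 202 in LC-/- KCs, but 434, 490 and 463 in WT DETCs and 394 and 393 in LC-/- DETCs. The genotypes did not overlap in either population, and the order was opposite. S100a11 and S100a6 had interactions of -0.33 and -0.32, with adjusted p in limma of 0.287 and 0.410. edgeR called none, and DESeq2 called S100a10 (adjusted p = 0.0366), 1 of 15 genes with an adjusted p, where 0.835% of all such genes were called in that direction.

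WT DETC and WT KC libraries were compared next. Here 4 of the 29 genes were higher and 12 were lower in DETCs, or 13.8% and 41.4%, against 41.0% and 35.1% of all tested genes. The 4 higher genes were all S100a genes. S100a4, known from motile cells and lymphocytes, had 67.6, 78.8 and 77.8 normalized counts in WT KCs and 1485, 1704 and 1683 in WT DETCs, and was 21.5-fold higher (log2 difference 4.42, SE 0.10, limma adjusted p = 5.62e-10). S100a13, S100a6 and S100a7a were 2.77-fold, 2.39-fold and 2.58-fold higher. S100a6 had 5275, 6412 and 6019 in WT DETCs. Per kilobase of exon, WT DETCs held most of S100a11 at 8736, of S100a6 at 4318 and of S100a4 at 2781.

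All 5 tested Sprr genes were lower in DETCs, by 6.48-fold to 9.60-fold, Sprr2a1 and Sprr2a3 from few reads. Sprr1a had 627, 878 and 704 normalized counts in WT DETCs, 10.4% of its WT KC mean of 7104 ± 1492 (SD, n = 3), a log2 difference of -3.26 (SE 0.16, limma adjusted p = 5.75e-08). Sprr1b had 33.8, 61.9 and 27.2 and Sprr4 9.82, 7.43 and 6.81 in WT DETCs, both far below every WT KC library. S100a14 had 711, 732 and 831 in WT DETCs and was 6.59-fold lower, and S100a16 had 190, 283 and 234 and was 6.34-fold lower. Tchh, at 34.9, 29.7 and 28.2, was 6.27-fold lower, as all 9 tested hair follicle markers were lower (median log2 difference -2.26). General keratinocyte genes lay in the same range. Krt5 and Krt14, the basal keratins, were 6.45-fold and 5.80-fold lower, and the 24 keratinocyte markers had a median log2 difference of -2.57 with all 24 called lower. S100a10 and S100a11, which many cell types express, were 1.88-fold and 1.38-fold lower, S100a11 having 4358, 4826 and 4209 in WT DETCs. Ivl was 2.28-fold lower (log2 difference -1.19, SE 0.21, limma adjusted p = 0.000609), and S100a3 4.42-fold lower from few reads. S100a1 was not called (-0.27).

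The late genes of the complex did not follow the keratinocyte markers. Lor had a mean of 665 ± 295 (SD, n = 3) in WT KCs and 1138 ± 637 in WT DETCs, a log2 difference of 0.75 (SE 0.40, 95% CI -0.16 to 1.65, limma adjusted p = 0.116). Flg had a log2 difference of 0.76 (SE 0.38, limma adjusted p = 0.0984), from 84.4 ± 40.2 in WT KCs to 134 ± 43.0 in WT DETCs. Without WT KC library 2 both passed, at 1.06 and 1.05 (limma adjusted p = 0.0447 and 0.0395). Flg2 had 798, 1762 and 1149 normalized counts in WT DETCs, and Lce1m 191, 476 and 120, with log2 differences of 0.30 and 0.70. That of Flg2 was -0.14 without WT KC library 3. Hrnr had 150, 178 and 96.0 in WT KCs and 168, 194 and 143 in WT DETCs, and Crct1 had 142, 219 and 72.6 in WT KCs and 101, 293 and 109 in WT DETCs. Hrnr, Crct1 and the other tested Lce1 genes had values between 0.15 and 0.81, and Lce6a of -0.55. None of these 12 genes passed the test, in which libraries were not paired. With the label number as a block, as given at the end, Lor, Flg and Lce1m passed. In each DETC library Lor, Flg, Flg2, Hrnr, Crct1 and Lce1m were also read as a percent of the KC mean. They gave 70.2% to 131% of the WT KC mean in WT library 1, 137% to 310% in library 2 and 75.3% to 129% in library 3. In LC-/- libraries 2 and 3 they gave 213% to 370% and 63.0% to 113% of the LC-/- KC mean. The lowest of these 6 genes was above the highest of the 24 keratinocyte markers in all 5 DETC libraries. The 6 other tested Lce genes, which had few reads, did not all do so. They gave 53.3% to 167%, 86.0% to 184% and 40.1% to 172% of the WT KC mean in WT libraries 1, 2 and 3, with Lce6a at 40.1% below the marker Cdh1 at 61.2% in library 3. In LC-/- library 2 they gave 122% to 1305% of the LC-/- KC mean. In LC-/- library 3 Lce1a1, Lce1c and Lce1l were at 0 and Lce1a2, Lce1b and Lce6a at 14.3%, 20.99% and 37.2%, among or below the markers. For Lor, Flg, Flg2, Hrnr, Crct1 and Lce1m the median was 210% in WT library 2 and 119% in WT library 1. The marker medians there were 15.8% and 15.3%. The medians of the 6 other Lce genes were 109% and 68.6%. Lor, Flg, Flg2, Hrnr, Crct1 and Lce1m were picked after the values were seen. The part of keratinocyte transcripts in the DETC libraries in these levels was not tested.

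**Figure D3:**
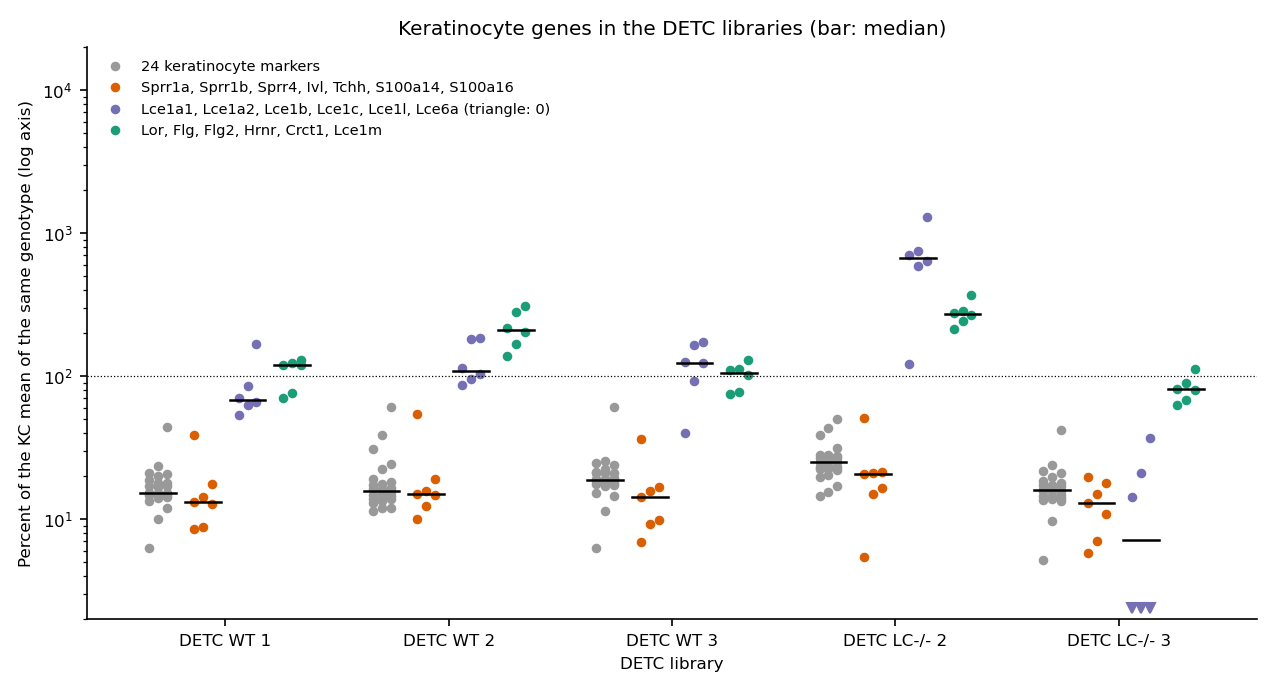
Normalized count in each of the 5 DETC libraries as a percent of the KC mean of the same genotype (log axis), for 24 keratinocyte markers (grey), 7 of the 12 genes of the complex that were lower in DETCs (orange), 6 Lce genes with few reads (violet, a triangle marking 0) and 6 late genes picked after their values were seen (green), with bars at the medians. Of the 12, S100a3, Sprr2a1, Sprr2a3, S100a10 and S100a11 are not drawn. In WT DETCs S100a10 and S100a11 stood at 53.1% and 72.4% of the WT KC mean. The green points lie above all grey points in every library, whereas the violet points range from above them to 0 in LC-/- library 3.

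When the values were centred on the 24 keratinocyte markers, an alternative added after the data had been seen, the late genes stood far above them. These genes had been picked after their values were seen, so this was not a test. The centring shifts all genes alike, and 88.9% of all tested genes were then called higher in WT DETCs and 1.34% lower. It restates the differences given above on another scale, so only the order within the complex can be read from it. Lor, Flg and Lce1m were then 9.57-fold, 9.65-fold and 9.28-fold higher than the markers would give, Flg2, Hrnr and Crct1 7.02-fold, 6.95-fold and 6.41-fold, and Ivl 2.50-fold. Sprr1a stood at 0.594 and S100a14 at 0.864 of the marker level, both called lower, and Sprr1b, Sprr4, Sprr2a1, Sprr2a3, S100a3, S100a16 and Tchh were not called. In all, 20 of the 29 genes were called higher and 2 lower, against 4 and 12 without centring.

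Past the first S100a genes, the classes lay in blocks along the chromosome. Within the first 0.15 Mb the calls of the tested S100a genes were mixed. There S100a1 was not called, S100a13 was higher in DETCs, S100a14, S100a16 and S100a3 lower, and S100a4, S100a6 and S100a7a higher. From the first S100a gene onward, Lor lay at 1.57 Mb, the 5 tested Sprr genes and Ivl between 1.71 and 2.06 Mb, the run from Lce6a through the Lce1 genes, Crct1, Flg2 and Flg to Hrnr between 2.11 and 2.82 Mb, and Tchh, S100a11 and S100a10 between 2.94 and 3.05 Mb. All genes of the Sprr and Ivl block were lower in DETCs, and no gene from Lce6a to Hrnr was called with libraries unpaired. Lor was the late gene outside that run.

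**Figure D4:**
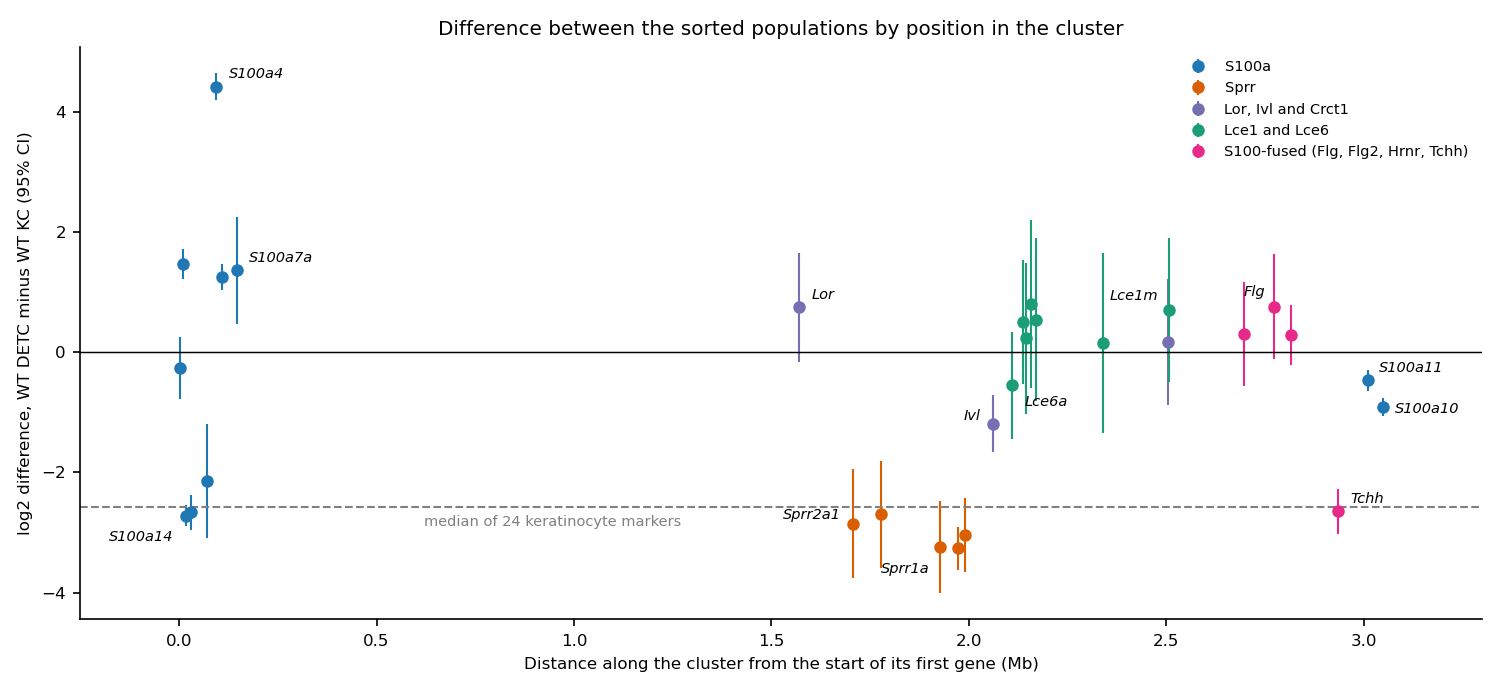
Log2 difference between WT DETC and WT KC libraries with its 95% confidence interval, against the distance from the start of the first gene in Mb, coloured by family, with a dashed line at the median of 24 keratinocyte markers. The Sprr genes and Tchh lie near the dashed line, the Lce genes, Lor, Flg, Flg2 and Hrnr near 0, and S100a4 at 4.42.

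Genes that work with the envelope were read from a list of 26 partners, 25 of them tested. In WT DETC against WT KC libraries 19 were lower and none higher, with a median log2 difference of -1.65. The 6 that were not called were Cdsn, a junction protein, Cnfn, an envelope protein, the proteases Klk5 and Asprv1, the lipoxygenase Alox12b and the protease inhibitor Csta1. Genes of like function were lower, such as the protease Klk7 (log2 difference -0.95), the protease inhibitor Spink5 (-1.16), the lipoxygenase Aloxe3 (-2.24) and the junction protein Dsc1 (-1.11). Cdsn stood at 89.9% and Cnfn at 99.6% of their WT KC means in WT DETCs. Among the 19 lower partners were the crosslinker Tgm1 (log2 difference -0.68, limma adjusted p = 0.0459), the scaffold Ppl (-2.42) and the desmosomal Dsg1a (-2.64). Krt1 and Krt10, keratins of the layers above the basal one, were lower by 11.5-fold and 4.01-fold. All 10 suprabasal markers were lower, with log2 differences of -3.70 to -0.68.

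Between genotypes, 1 of 25 partners rose in LC-/- KCs and none fell, beside 5.37% of all tested genes called higher. Aloxe3, a lipoxygenase needed for the lipid layer bound to the envelope, had 397, 384 and 384 normalized counts in WT KCs and 871, 876 and 758 in LC-/- KCs, a 2.14-fold rise (limma adjusted p = 0.0142). No partner was called in DETCs. None of Krt1, Krt10, Krt5 and Krt14 passed the test between genotypes in KCs, with log2 differences of -0.36, -0.22, -0.12 and 0.04, or in DETCs, with -0.29, -0.17, 0.13 and 0.30. The suprabasal markers had a median of -0.22 in KCs and of 0.04 in DETCs, none of the 10 being called.

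Of 27 regulators of epidermal differentiation, 4 rose and 2 fell in LC-/- KCs, where 5.37% and 1.85% of all tested genes were called, and 2 rose in LC-/- DETCs, where 3.13% were called higher. Of the 4 that rose in KCs, 3 had an adjusted p of 0.0453 to 0.0497, and over all genes the higher calls in KCs fell from 775 to as few as 5 with 1 library left out. Prdm1, a transcriptional repressor, rose by a log2 difference of 0.83 (limma adjusted p = 0.0169), the AP-1 member Fosl1 by 0.56 (limma adjusted p = 0.0453), the grainyhead factor Grhl1 by 0.38 (limma adjusted p = 0.0492) and Tfap2a by 0.28 (limma adjusted p = 0.0497). Maf fell by 0.40 on the log2 scale (limma adjusted p = 0.0292) and Rxra, a retinoid X receptor, by 0.42 (limma adjusted p = 0.0371). In LC-/- DETCs the AP-1 member Fosl2 rose by 0.87 (limma adjusted p = 0.0359) and Nfe2l2, the oxidative stress factor, by 0.83 (limma adjusted p = 0.00991). For both the difference between the populations passed the interaction test, with adjusted p in limma of 0.0174 and 0.0146. Calls in DETCs were fragile too, as the higher calls over all genes fell from 452 to 42 without WT DETC library 3. With limma run without its trend, 0 genes were called higher and 0 lower in DETCs, Fosl2 and Nfe2l2 included. Klf4, a driver of barrier formation, had log2 differences of -0.06 in KCs and 0.24 in DETCs.

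Markers of the cell types that the sorts could hold were read beside these genes. Of the 24 keratinocyte markers, Dsg3, Cdh1 and Epcam rose in LC-/- KCs (log2 differences 0.33, 0.65 and 0.68) and Epcam also rose in LC-/- DETCs (0.72). The medians of the 24 were 0.06 in KCs and 0.34 in DETCs. No basal marker of 10 and no hair follicle marker of 9 was called between genotypes, with medians of -0.01 and -0.04 in KCs and of 0.25 and 0.37 in DETCs. Of 18 T cell markers, Cd3g rose in LC-/- KCs from near 0 and Trdv4 fell in LC-/- DETCs, with medians of 0.08 and -0.08. Of 10 tested Langerhans cell markers, Cd207, Cd74 and H2-Aa fell in LC-/- KCs, and Cd74, H2-Aa, H2-Ab1 and H2-Eb1 fell in LC-/- DETCs, while Epcam, which is on both lists, rose. None of 6 tested markers of melanocytes, mast cells, fibroblasts and endothelium was called between genotypes, with medians of -0.15 in KCs and -0.42 in DETCs. The part of these cells in the values of the complex was not tested.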

How the data were processed

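Poly-A RNA of sorted KCs and DETCs (50 ng, 16 amplification cycles) was sequenced in paired 75-base reads. After trimming (cutadapt), alignment to GRCm38 (hisat2) and counting per gene (featureCounts), the authors divided the counts by median-of-ratios size factors, and this signal per gene is what they deposited. Tool versions and strand settings are not given in the sources used here. The value of 1 read in each library gave back whole reads for 100.0% of values (tolerance 0.01 reads). Symbols and positions were taken from GENCODE mouse release 21 (52403 of 52550 identifiers), and promoters from RefSeq.

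Normalized counts plus 1, on the log2 scale, were fitted with limma 3.58.1 in R 4.3.3 (eBayes with a trend) for genes with a CPM above 1 in at least 2 libraries, and p-values were adjusted over all 14419 genes (Benjamini-Hochberg, threshold 0.05). Folds are on that scale. edgeR 4.0.16 and DESeq2 1.42.0 were run on the recovered reads. The study describes the libraries as separate animals, which the labels do not state. Other alternatives were pseudocounts, filters, normalizations, limma without the trend, 1 fit over all libraries, a replicate block and omission of each library. The genes and lists were chosen with earlier results of these data known. Named genes were Lor, Flg and Ivl, genes called between genotypes, the 3 most abundant per family in WT KCs, called genes of the lists, and Krt1, Krt10, Krt5 and Krt14. Others were named after their values were seen.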

Additional observations from a re-analysis of the deposited data

How the results depend on the processing

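The counts of called genes kept their values, or stayed within 1.5 times, in 138 of 152 recomputations. In KCs 1 gene was called higher, against 2 with no filter, 4 by DESeq2 and 0 with quantile normalization, and 0 to 1 with each library left out. In DETCs 0 were called, and also 0 with any 1 WT library left out. Without 1 of the 2 LC-/- DETC libraries a single one is left, so those fits are given above by log2 difference only. Between WT populations 4 were higher and 12 lower, against 20 and 2 when centred on keratinocyte markers, and 4 to 6 higher with each library left out. Quantile normalization gave 3 higher and 15 lower and moved the median of all genes from 0.07 to -0.24. For the interaction 0 were called, against 1 lower by DESeq2. With each library left out the log2 differences that changed sign ran from -0.52 to 0.49 for Lor and -0.75 to 0.019 for Flg in KCs, from -0.74 to 1.03 for Lor, -0.76 to 0.32 for Flg, -0.79 to 0.56 for Ivl and -0.030 to 0.022 for S100a10 in DETCs, and from -0.14 to 0.65 for Flg2 between populations. S100a10 in DETCs was -0.042 with TMM normalization, -0.043 with edgeR, -0.027 both with size factors within the libraries used and with DESeq2, -0.16 with quantile normalization and -0.30 when centred on keratinocyte markers. That centring also gave -0.16 for Lor in DETCs, and turned Ivl from -1.19 to 1.32 and S100a10 from -0.91 to 1.60 between populations. The cause of these changes was not tested, apart from the loss of samples or the shift of all genes that the alternatives bring by construction.

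Label numbers are shared by the populations but not by the genotypes, so a replicate block could be fitted to the population and interaction comparisons. Deviations of same-numbered libraries had correlations of 0.156 (LC-/- 2), 0.128 (LC-/- 3), -0.06 (WT 1), 0.07 (WT 2) and 0.12 (WT 3) over 14039 genes, and 3 of the 5 correlated best with their own number. These correlations do not settle what the number stands for. The main fits did not use the numbers as pairs, because no label says what they are. The block gave 7 higher and 12 lower genes of the 29 between WT populations, and 5858 higher and 5015 lower of all 14419 tested genes. Lor, Flg and Lce1m were added at unchanged log2 differences (limma adjusted p = 0.00166, 0.0182 and 0.00165). For the interaction the block gave 0 of the 29. On simulated counts for 14419 genes in the KC design, limma recovered 12 of 87 2-fold and 59 of 113 4-fold changes, edgeR 70 and 98, and DESeq2 58 and 92. Between WT populations limma recovered 7 of 102 and 57 of 98, edgeR 69 and 95, and DESeq2 71 and 92. For the interaction limma recovered 9 of 93 and 94 of 107, edgeR 22 and 93, and DESeq2 23 and 91. In the DETC design limma recovered 68 of 99 and 99 of 101, edgeR 69 and 98, and DESeq2 65 and 97. These simulations did not use the spread of the genes described here. DESeq2 gave no adjusted p to 10 of the 29 genes in KCs.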
